A study of Mus musculus with 12 samples.

Results

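The small leucine-rich proteoglycans are a family of secreted matrix proteins, and 10 of its genes were followed here through the growth of the mouse upper jaw: Lum, Dcn, Bgn, Fmod, Ogn, Omd, Aspn, Prelp, Kera and Epyc. They were taken by name out of 53801 genes counted in each library, and all 10 were found. The maxillary prominence of wild type C57BL/6 embryos was dissected and its polyadenylated RNA sequenced at 4 ages, which are embryonic day 10.5 (E10.5), then E11.5, then E12.5, and last E14.5. Every age has 3 libraries, so there are 12. No treatment or engineered allele is named for any group, and age is the difference between stages that the labels name. The tissue was dissected whole, and the replicates are named biological in the labels. No label ties them to different litters, and p-values therefore speak of the spread among the libraries sequenced. The oldest stage has a label block of its own, and the title of its replicate 1 lists 2 parts. In every comparison with E14.5, age cannot be told apart from any difference in handling that goes with that block.

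Each protein of the family has a core of leucine-rich repeats, and most carry glycosaminoglycan chains. Many members bind fibrillar collagen and affect how fibrils form and how thick they become, and several also bind growth factors of the TGF-beta family. By sequence they fall into classes: Dcn, Bgn and Aspn form class I, Lum, Fmod, Kera, Omd and Prelp class II, and Ogn and Epyc class III. The maxillary prominence is filled mostly by neural crest mesenchyme, which gives rise to bone, cartilage-related tissue, tendon and loose connective tissue of the face.

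All libraries were of similar depth, with 28294837 to 33941430 counts in genes. Levels are given as counts per 1000000 counts in genes (CPM) after TMM scaling, and a change is called where edgeR's quasi-likelihood test gave a Benjamini-Hochberg adjusted p under 0.05 over 18365 genes. Genes marking neural crest mesenchyme (7 genes) summed to 1086 to 1970 CPM over the 12 libraries, and those of the mandibular arch (Dlx5, Dlx6 and Hand2) to 14.8 to 58.5 CPM. At E14.5 against E10.5, 1 of the 7 crest genes was higher and 6 were lower, and all 3 mandibular genes were higher (median 1.22 on the log2 scale). Hand2, which marks the distal lower jaw, stood at 0.0589 CPM at E10.5, 12.7 at E12.5 and 4.50 at E14.5 (stage means), and the part of such tissue in the members' levels was not tested. Alignments that fell outside annotated genes took 2.67%, 1.92% and 4.88% of the alignments in E10.5 replicates 1, 2 and 3. The E11.5 libraries had 2.16% to 2.42%, those of E12.5 had 5.03% to 5.43%, and the oldest stage had 5.78% to 6.21%. This share therefore moves with stage. The fit that holds it as a covariate cannot separate it from age, and its part in the results below was not tested otherwise. In whole tissue, a higher share of cells that make a transcript and more transcript per cell cannot be told apart.

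The members lie in 3 groups of neighbours and 1 lone gene in the mouse genome (mm10 build). On chromosome 10, Dcn (97479609 to 97518143), Lum (97565128 to 97572703), Kera (97606879 to 97613692) and Epyc (97644068 to 97682454) follow each other on the plus strand, with gaps of 47.0, 34.2 and 30.4 kb and 0 other protein-coding genes between them. On chromosome 13, Aspn (49544443 to 49567565), Omd (49582462 to 49592822) and Ogn (49608046 to 49624501) lie 14.9 and 15.2 kb apart, all on the plus strand and within the span of Cenpp on the other strand. On chromosome 1, Prelp (133910304 to 133921414, minus strand) and Fmod (134037254 to 134048277, plus strand) are 115.8 kb apart, and Bgn is on the X chromosome (73483602 to 73495933, plus strand). The libraries do not mark strand, so reads in exonic bases shared with a gene on the other strand cannot be assigned. Cenpp shares 7 exonic bases with Aspn, Gm15851 on the opposite strand shares 350 with Prelp and has 0 counts, and Gm10754 shares 1041 with Epyc (40.65% of its exonic bases) and has 1 count over all libraries. How strand was set in counting is not given in the sources used here, and the effect of these overlaps was not tested.

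**Figure D1:**
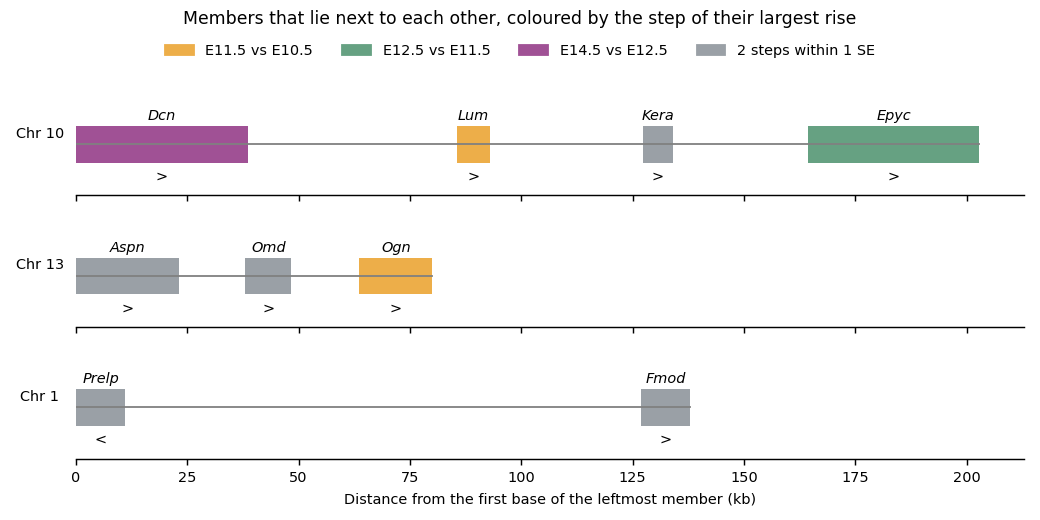
Map of the members that lie beside each other on chromosomes 10, 13 and 1, with distance in kb from the first base of the leftmost member on the horizontal axis and arrowheads for strand. Boxes are genes, coloured by the step with the largest log2 fold change, which is not divided by days. They are grey where the largest and the next step differ by less than 1 SE. Neighbours on chromosome 10 carry 4 different colours.

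The 3 neighbours on chromosome 13 are shown by the 250 bases before their start sites, because they lie within one short stretch and yet differed in timing. Bgn is shown beside them as the member with the smallest called change at the first step. Sequences are from RefSeq (GRCm38.p6), 5′ to 3′ on the strand of the gene, and 8 of the 10 members matched the promoter table. Capitals mark matches, on either strand, to TATAAA (a promoter box), to TGTGGT (core of RUNX sites) or to CAGCTG (an E-box). The E-box CAGATG and the SMAD-site letters in CAGACA were also searched; they occur in 14.44% and 17.13% of all promoters and in none of these windows.
Aspn, chr13:49544193-49544442: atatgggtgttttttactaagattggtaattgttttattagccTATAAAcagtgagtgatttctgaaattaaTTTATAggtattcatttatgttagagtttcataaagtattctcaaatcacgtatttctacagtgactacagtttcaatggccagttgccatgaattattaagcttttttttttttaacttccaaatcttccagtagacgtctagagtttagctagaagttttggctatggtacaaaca
Omd, chr13:49582212-49582461: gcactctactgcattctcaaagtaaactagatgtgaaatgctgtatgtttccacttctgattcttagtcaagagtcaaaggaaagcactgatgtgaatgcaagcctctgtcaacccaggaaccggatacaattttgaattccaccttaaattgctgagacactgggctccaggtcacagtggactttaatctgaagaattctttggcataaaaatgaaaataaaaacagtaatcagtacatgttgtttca
Ogn, chr13:49607765-49608014: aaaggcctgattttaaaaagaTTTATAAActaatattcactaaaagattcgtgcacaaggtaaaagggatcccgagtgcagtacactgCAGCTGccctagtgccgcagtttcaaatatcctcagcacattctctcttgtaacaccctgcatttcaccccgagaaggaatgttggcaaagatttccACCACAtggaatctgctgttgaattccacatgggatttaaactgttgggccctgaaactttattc
Bgn, chrX:73483351-73483600: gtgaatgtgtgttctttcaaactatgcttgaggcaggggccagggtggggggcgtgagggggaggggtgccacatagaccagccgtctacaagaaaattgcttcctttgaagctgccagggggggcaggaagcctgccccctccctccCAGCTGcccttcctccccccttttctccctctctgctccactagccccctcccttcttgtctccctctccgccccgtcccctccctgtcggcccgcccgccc
The window of Aspn is the poorest in G and C of the 4, at 30%, against 38.4% for Omd, 42.0% for Ogn and 64.4% for Bgn, where the median of all 32851 promoters was 52.4%. TATAAA was found 207 bases before the start of Aspn and, on the other strand, 178 bases before it. In Ogn, 2 matches on opposite strands overlap in one run at 229 and 227 bases before the start. TATAAA occurs in 12.37% of all promoters in windows of that length. The Ogn window also holds TGTGGT on the other strand at 65 bases and CAGCTG at 162 bases before the start, motifs found in 14.05% and 13% of all promoters. CAGCTG lies 102 bases before the start of Bgn, and none of these motifs is in the Omd window. These matches describe the letters and say nothing of which factors bind there.

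The summed level of the family was higher at each later stage. The sum of the 10 members was 46.5 ± 9.1 CPM at E10.5, 251.1 ± 63.7 at E11.5, 502.1 ± 113.1 at E12.5 and 1805 ± 112 at E14.5 (SD, n = 3 each). The lowest E14.5 library (1676 CPM) lay far above the highest E12.5 library (612 CPM). Between E10.5 and E11.5, 8 members rose and Prelp fell, where 12.2% of all tested genes were called higher and 12.9% lower (25.1% in either direction). Between E11.5 and E12.5, 5 members rose and the other 5 were not called, where 27.1% of all tested genes were called higher and 22.2% lower (49.3% in either direction). Between E12.5 and E14.5 all 10 rose, where 23% of all tested genes were called higher and 24% lower (47.1% in either direction). Over the whole course, E14.5 against E10.5, all 10 were higher, where 36.6% of tested genes were called higher and 33.8% lower (70.4% in either direction).

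The sizes of the changes can be read beside those of all tested genes. The median log2 fold change of the members was 3.00 at the first step, 1.10 at the second and 1.94 at the third, against -0.04, 0.06 and -0.01 for all tested genes. Over the whole course it was 6.01 against 0.06. The third step spans more days than the first or the second, and changes are given per step, not per day. At least 4-fold rises were seen in 6, 4 and 5 members at the 3 steps, where 1.88%, 6.35% and 4.84% of all tested genes rose that much. All 10 members passed the filter on low counts, but not through every stage. Aspn was under 0.319 CPM, the level the filter asks for, in all 3 libraries of E10.5, Epyc in those of E10.5 and E11.5, and Prelp in those of E11.5. Such members had to differ between stages to be tested.

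**Figure D2:**
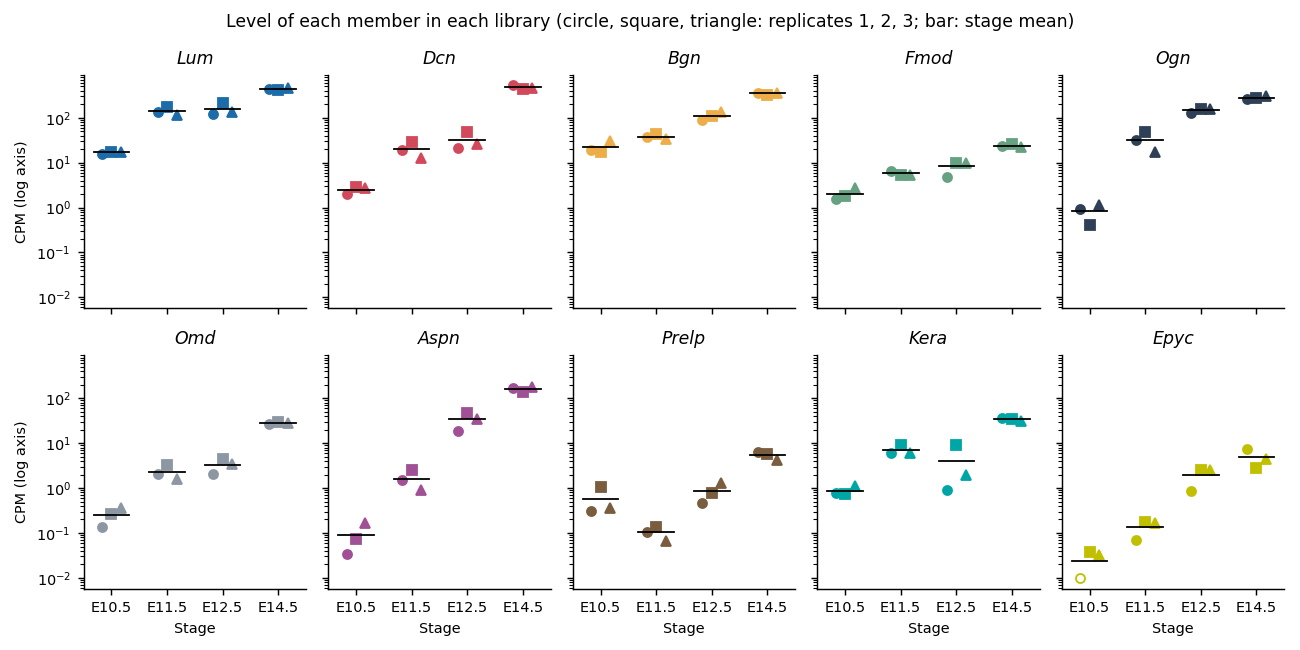
CPM (log axis) of each of the 10 members in each library at the 4 stages, with circles, squares and triangles for replicates 1, 2 and 3 and a bar at the stage mean. An open symbol at the foot of the Epyc panel is a library with 0 counts. The E14.5 libraries lie above those of every earlier stage in all 10 panels. How many of all tested genes do so was not counted.

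Class I members differed in level and in the size of their steps. Decorin (Dcn), which binds collagen fibrils and carries one chondroitin or dermatan sulphate chain, stood at 1.99, 2.85 and 2.73 CPM in the E10.5 libraries and at 18.8, 28.8 and 12.8 CPM at E11.5. Its E12.5 libraries held 20.9, 48.0 and 26.0 CPM and its E14.5 libraries 532, 440 and 471 CPM. The libraries of E11.5 and E12.5 overlap, and those of every other pair of stages are apart. Dcn thus changed in 2 bursts, by 2.99 (SE 0.36, edgeR adjusted p = 5.55e-05) on the log2 scale at the first step and by 3.93 (SE 0.31, adjusted p = 7.48e-07) at the third. The second step was 0.65 (SE 0.29, adjusted p = 0.0778) and was not called. It was called with E11.5 replicate 2 left out or E12.5 replicate 1 left out.

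Biglycan (Bgn), the closest relative of decorin, started from the highest level of the class and climbed by the most even steps. Its libraries held 19.4, 17.1 and 30.8 CPM at E10.5, then 37.0, 43.3 and 34.0 at E11.5, 89.6, 110.8 and 132.6 at E12.5 and 364, 319 and 360 at E14.5. No pair of stages overlaps. The log2 fold changes were 0.76 (SE 0.19, edgeR adjusted p = 0.0110), 1.54 (SE 0.19, adjusted p = 5.15e-05) and 1.65 (SE 0.19, adjusted p = 1.58e-05). The first call was lost without E11.5 replicate 2 (0.66, adjusted p = 0.0523). Bgn lies on the X chromosome, and Xist, the transcript of the silenced X, was low in E10.5 replicate 2 and E12.5 replicate 2 (0.063 and 9.84 CPM, unscaled). At E12.5 that library lay between the other two for Bgn, and at E10.5 it was the lowest of the 3.

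Asporin (Aspn), a class I protein that lacks the chain-bearing site of its relatives, was nearly silent at first. It had 0.0349, 0.0739 and 0.164 CPM at E10.5, 1.5, 2.49 and 0.918 at E11.5, 19.0, 47.9 and 35.3 at E12.5 and 168, 136 and 180 at E14.5. Each stage lies wholly above the one before. The rise of 10.70 (SE 0.52, edgeR adjusted p = 1.75e-09) on the log2 scale from E10.5 to E14.5 was the largest among the 10 members, and it starts from counts near 0. The steps were 4.08 (SE 0.80, adjusted p = 0.00223), 4.38 (SE 0.35, adjusted p = 2.14e-06) and 2.24 (SE 0.27, adjusted p = 2.85e-05). With limma-voom the first of these missed the threshold (3.98, adjusted p = 0.0585).

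Among class II members, lumican (Lum), a keratan sulphate proteoglycan of collagen-rich tissues, rose early and strongly. Its libraries held 15.8, 17.2 and 17.7 CPM at E10.5 and 136, 178 and 115 CPM at E11.5. At E12.5 they held 122, 218 and 137 CPM, overlapping the E11.5 libraries, and at E14.5 445, 407 and 461 CPM. The first step was 3.08 (SE 0.21, edgeR adjusted p = 4.84e-07) on the log2 scale, the second 0.15 (SE 0.19, adjusted p = 0.520) and the third 1.46 (SE 0.19, adjusted p = 5.16e-05). Lum and Dcn, neighbours 47.0 kb apart, both changed little between E11.5 and E12.5. They differed in which of the outer steps was larger, taken per step and not per day.

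Fibromodulin (Fmod), which shares collagen-binding sites with lumican, was a low transcript with modest steps. It held 1.54, 1.77 and 2.73 CPM at E10.5, 6.66, 5.28 and 5.34 at E11.5, 4.86, 9.87 and 9.96 at E12.5 and 23.5, 25.5 and 22.0 at E14.5. E11.5 and E12.5 overlap because E12.5 replicate 1 lies below all E11.5 libraries. The outer steps were alike in size, at 1.51 (SE 0.27, edgeR adjusted p = 0.00129) and 1.52 (SE 0.24, adjusted p = 0.000215), while the middle one was 0.52 (SE 0.25, adjusted p = 0.0981). Osteomodulin (Omd), an acidic keratan sulphate protein known from bone and dentine, had the same shape over a wider range. Its libraries held 0.14, 0.259 and 0.362 CPM at E10.5, 2.03, 3.28 and 1.63 at E11.5, 2.03, 4.34 and 3.51 at E12.5 and 27.4, 29.0 and 28.0 at E14.5. The steps were 3.16 (SE 0.40, adjusted p = 9.06e-05), 0.51 (SE 0.28, adjusted p = 0.151) and 3.09 (SE 0.27, adjusted p = 1.85e-06). For both genes the middle step was called once E12.5 replicate 1 was left out, and for Omd also without E11.5 replicate 2.

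Keratocan (Kera), best known from the corneal stroma, was the member with the least even E12.5 libraries. It stood at 0.768, 0.739 and 1.12 CPM at E10.5 and at 6.16, 9.32 and 5.92 CPM at E11.5. At E12.5 replicates 1, 2 and 3 held 0.904, 9.07 and 2.00 CPM, and at E14.5 the libraries held 36.0, 34.3 and 31.5 CPM. E12.5 replicate 1 was back among the E10.5 libraries while replicate 2 was among those of E11.5. Kera rose by 3.01 (SE 0.64, edgeR adjusted p = 0.00365) on the log2 scale at the first step and by 3.09 (SE 0.53, adjusted p = 0.000425) at the third. The middle step of -0.84 (SE 0.53, adjusted p = 0.203) was not called. Without E12.5 replicate 2 it became a called fall of 2.28 (adjusted p = 0.000167), and E12.5 against E10.5 was then no longer called (0.73, adjusted p = 0.101). With all libraries, limma-voom also called the fall (-1.45, adjusted p = 0.0302) and did not call E12.5 against E10.5 (1.54, adjusted p = 0.104). That library also had the highest sums of muscle, epithelial and neuronal markers of its stage, at 209, 891 and 241 CPM against 103 to 132, 494 to 673 and 61.7 to 146 CPM in the other two. Their part in the Kera value was not tested.

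Eye tissue lies close to the maxillary prominence and keratocan is a gene of the cornea, so eye genes were read beside it. The 10 cornea and eye genes summed to 39.2 to 79.7, 29.5 to 45.4, 54.6 to 68.5 and 40.5 to 51.1 CPM from the youngest to the oldest stage. Krt12, the keratin of the corneal epithelium, had 1 count in all at E11.5 and none at the other stages. The sum was therefore no higher at E14.5, where Kera was highest, than at E12.5 or in the highest library of E10.5.

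Prelp, a class II protein that anchors to heparan sulphate and collagen, moved against the others at the first step. It stood at 0.314, 1.07 and 0.362 CPM at E10.5, 0.107, 0.138 and 0.0680 at E11.5, 0.468, 0.794 and 1.28 at E12.5 and 6.40, 5.76 and 4.31 at E14.5. All E11.5 libraries lie below all E10.5 libraries, and E12.5 overlaps E10.5. The gene fell by 2.42 (SE 0.62, edgeR adjusted p = 0.0120) on the log2 scale and then rose by 2.98 (SE 0.59, adjusted p = 0.00127) and 2.68 (SE 0.41, adjusted p = 0.000165). The fall rests on E10.5 replicate 2: without it the change was -1.65 (adjusted p = 0.0594), and with limma-voom it was -2.11 (adjusted p = 0.0555). E12.5 against E10.5 was not called (0.56, adjusted p = 0.318) and became a call without that library (1.31, adjusted p = 0.0260).

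Class III split into an abundant and a scarce gene. Osteoglycin (Ogn), also called mimecan, held 0.943, 0.407 and 1.12 CPM at E10.5 and 31.6, 48.8 and 17.3 CPM at E11.5. It reached 125, 160 and 158 CPM at E12.5 and 260, 276 and 310 CPM at E14.5, with every stage wholly above the one before. Its steps became smaller with age, from 5.28 (SE 0.39, edgeR adjusted p = 1.06e-06) through 2.18 (SE 0.27, adjusted p = 5.65e-05) to 0.93 (SE 0.26, adjusted p = 0.00969) on the log2 scale. The first of these was the largest single step of the 10 members.

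Epiphycan (Epyc), a dermatan sulphate proteoglycan of growth cartilage, was close to absent at first, with 0, 1 and 1 counts in the E10.5 libraries and 2, 5 and 5 at E11.5. It had 0.842, 2.50 and 2.56 CPM at E12.5 and 7.38, 2.85 and 4.51 CPM at E14.5. The first step was not called (edgeR adjusted p = 0.139), and the ratio of the summed counts, 12 against 2 after scaling for depth, was 5.97 with an exact 95% interval of 1.33 to 55.0 that covers counting error only. For E12.5 the ratio to E10.5 was 85.4 (23.3 to 710), and for E14.5 it was 212 (58.3 to 1752). The second step was 3.79 (SE 0.57, adjusted p = 0.000218) and the third 1.32 (SE 0.41, adjusted p = 0.0181) on the log2 scale. The third was lost without E12.5 replicate 1 (0.94, adjusted p = 0.0554) or without E14.5 replicate 1 (0.91, adjusted p = 0.115). The 10 cartilage genes summed to 684 to 888, 229 to 314, 512 to 727 and 502 to 996 CPM at the 4 stages in order of age. Most of that sum is Col2a1, the main cartilage collagen, with stage means of 451, 176, 373 and 477 CPM. Acan, the large cartilage proteoglycan, stood at 0.147, 0.0691, 4.17 and 73.2 CPM in the same order. At the first step 0 of the 10 cartilage genes were called higher and 6 lower, where 12.2% and 12.9% of all tested genes were. At E14.5 against E10.5, 6 were called higher and 1 lower, where 36.6% and 33.8% of all tested genes were. At E14.5 against E11.5, 9 of the 10 cartilage genes were called higher, where 37.2% of all tested genes were. The part of cartilage genes in the Epyc levels was not tested. Of these genes, Snorc had no count at E10.5, and Snorc and Matn1 had none at E11.5.

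**Figure D3:**
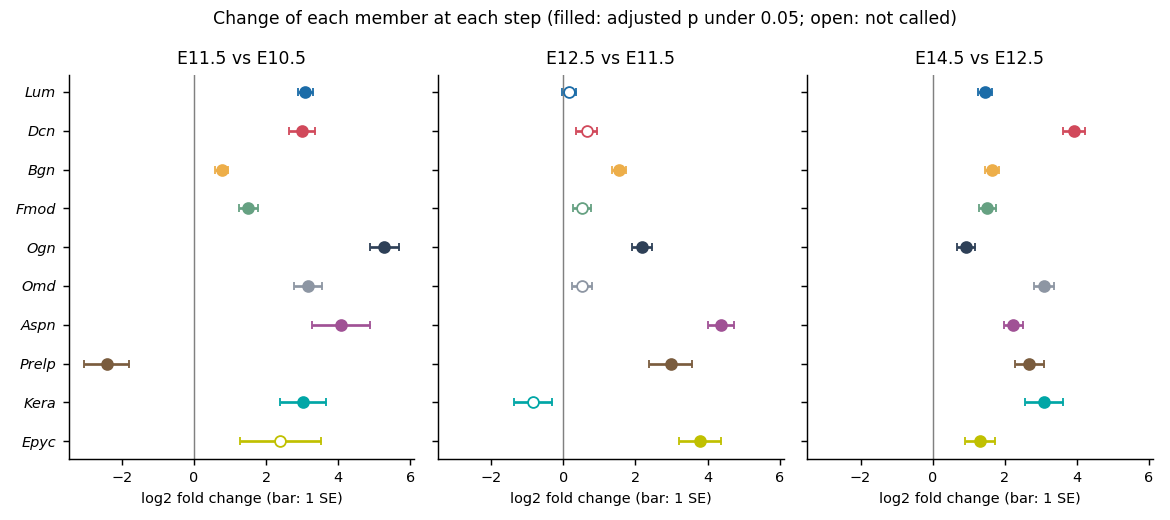
Log2 fold change with its SE for each of the 10 members at the 3 consecutive steps, with filled points where the adjusted p was under 0.05 and open points where it was not. All 10 points of the third step are filled and positive, 5 of the second are open, and Prelp alone is filled and negative at the first.

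The members differed in the step at which they changed most, with changes taken per step and not per day. The third step spans more days than the first or the second. Lum and Ogn had their largest rise between E10.5 and E11.5, Epyc between E11.5 and E12.5 and Dcn between E12.5 and E14.5. In the other 6 members the largest and the next largest step differed by less than 1 SE. The joint test over the 4 stages called all 10 members, where 81.6% of all tested genes were called. E12.5 was higher than E10.5 in 9 of the 10, where 28% of all tested genes were called higher and 25.5% lower (53.5% in either direction). E14.5 was higher than E11.5 in all 10, where 37.2% were called higher and 32.7% lower (69.9% in either direction).

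Some calls that involve E12.5 or E14.5 were lost in a fit with the share of alignments outside genes as covariate. That share moves with stage, so this fit cannot separate it from age. Its SEs were wider, as for Aspn between E11.5 and E12.5 (1.84 against 0.35), and a lost call does not show dependence on the share. With that share as a covariate, 1 member was called between E11.5 and E12.5 (Prelp) in place of 5, and 3 members between E11.5 and E14.5 in place of 10. Over all tested genes the calls went from 49.3% to 3.77% and from 69.9% to 18.8% in these comparisons. Epyc then reversed to -1.01 (edgeR adjusted p = 0.773) and -0.87 (adjusted p = 0.758) in the same comparisons, and Lum, Fmod and Omd, not called without the covariate, turned negative between E11.5 and E12.5. Kera lost its call between E10.5 and E12.5 (1.32, adjusted p = 0.370). At the third step Ogn (0.76, adjusted p = 0.0877) and Epyc lost their calls. E14.5 against E10.5 kept all 10.

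Levels of different genes were compared per length, as RPKM, which divides CPM by the kilobases of exon. At E10.5 Lum made up 55.1% ± 5.7 and Bgn 28.7% ± 5.1 of the summed RPKM of the family (SD, n = 3). At E11.5 Lum reached 67.2% ± 2.8, followed by Ogn at 13.9% ± 3.5 and Bgn at 7.30% ± 1.00. At E12.5 Lum (38.5% ± 4.5) and Ogn (35.1% ± 4.5) had overlapping levels. At E14.5 the order was Lum 33.4% ± 0.1, Ogn 20.6% ± 1.7, Dcn 15.4% ± 1.2, Aspn 12.8% ± 1.0 and Bgn 10.7% ± 0.2. Dcn and Aspn overlap there, as do Aspn and Bgn. Kera (2.79%), Omd (2.35%), Fmod (1.35%), Epyc (0.356%) and Prelp (0.286%) formed the lower end of the order, in which only Epyc and Prelp overlap. The place of Bgn depends on its gene model: with the longest transcript (2666 bases) in place of all its exons (6099 bases) it made up 20.7% at E14.5 and stood second. With that length it also led Lum on average at E10.5 (47.3% against 40.1%, with overlapping levels) and stood second at E11.5 (15.1% against 12.6% for Ogn, also overlapping). Dcn, at 3.43% ± 0.61 of the family at E10.5 and 3.14% ± 0.70 at E12.5, entered the leading genes only at E14.5.

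**Figure D4:**
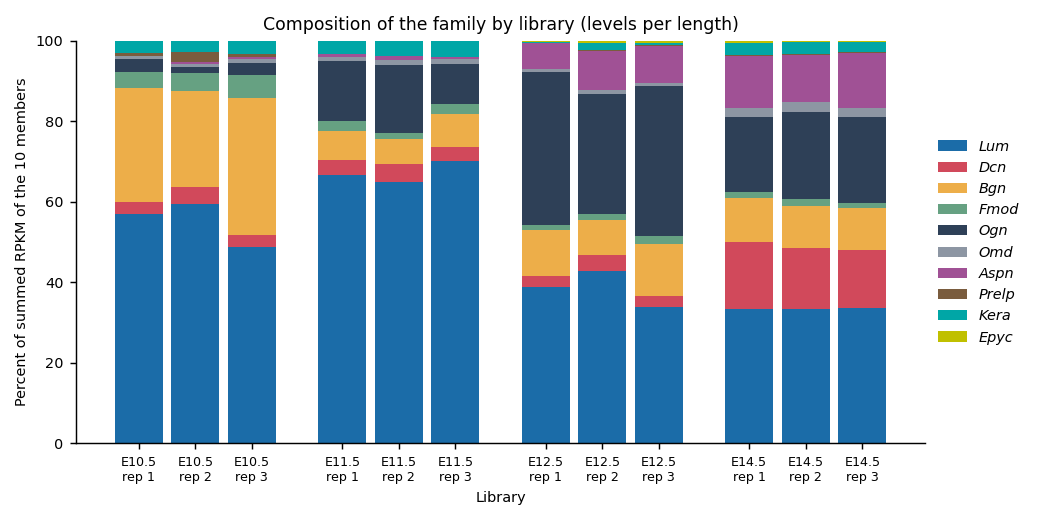
Percent of the summed RPKM of the 10 members that each member makes up, one stacked bar per library, grouped by stage. Lengths are the union of exons. Lum then takes the largest part of every bar except where Ogn exceeds it at E12.5 replicate 3. Dcn and Aspn are wide at E14.5. With the longest transcript as length, Bgn led Lum on average at E10.5 (47.3% against 40.1%, with overlapping levels).

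Ratios between members of one library, in which both genes share the scaling, showed how unequally close genes moved. They are log2 ratios of CPM, not per length, so their changes between stages can be read and their sign does not say which gene had more transcripts. The exact permutation test over the 12 libraries used the F statistic of the stages, which has no direction. Adjusted over the 7 ratios tested, it gave an adjusted p of at most 0.00182 for each ratio. No share was computed for pairs of other genes, and 81.6% of all tested genes were called in the joint edgeR test over the stages. The ratio of Lum to Dcn was 2.75, 2.89 and 2.38 at E10.5, E11.5 and E12.5 and -0.13 at E14.5 (adjusted p = 0.00136), where per length Lum was still the higher of the pair (33.4% against 15.4% of the family). That of Lum to Kera was 4.27, 4.33, 5.91 and 3.69 in order of age (adjusted p = 0.000909), with E12.5 libraries from 4.59 to 7.05. That of Kera to Epyc was 4.66, 5.59, 0.53 and 2.89 (adjusted p = 0.000341), with E12.5 libraries from -0.35 to 1.85. Epyc had 2 counts at E10.5 and 12 at E11.5, so its ratios at those stages rest on few counts and depend on the prior count. On chromosome 10 the neighbours therefore changed by unequal amounts. On chromosome 13 the ratio of Aspn to Omd was -1.43 and -0.55 at E10.5 and E11.5 and 3.33 and 2.51 at E12.5 and E14.5 (adjusted p = 0.000303). The ratio of Ogn to Omd was 1.61, 3.75, 5.54 and 3.32 (adjusted p = 0.000303), and that of Fmod to Prelp was 1.94, 5.62, 3.30 and 2.12 (adjusted p = 0.00182). The ratio of Dcn to its relative Bgn was -3.11, -0.99, -1.88 and 0.47 (adjusted p = 0.000303), and which of them is higher per length depends on the length used for Bgn.

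**Figure D5:**
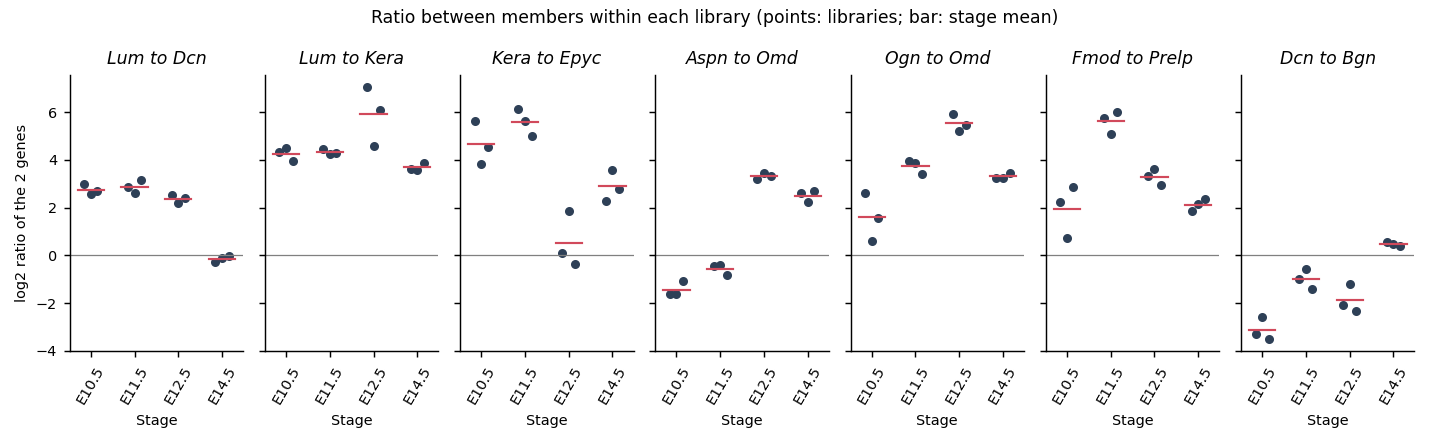
Log2 ratio of CPM between 2 members, in 7 pairs, for each library (points) by stage, with a bar at the stage mean. The Lum to Dcn ratio is lower at E14.5 (-0.13) than at the earlier stages (2.38 to 2.89), and the Aspn to Omd ratio is higher at E12.5 (3.33) than at E11.5 (-0.55).

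The libraries of E11.5 and E12.5 ranked alike for most members. At E12.5 replicate 1 was the lowest library for all 10 members, replicate 2 was the highest for 6 and replicate 3 for 4. At E11.5 replicate 2 was the highest for 9 members and replicate 3 the lowest for 8. At E10.5 replicate 3 was the highest for 7 members. At E14.5 replicates 1, 2 and 3 were the highest for 5, 2 and 3 members and the lowest for 2, 5 and 3. On the first principal component of all genes, which held 61.6% of the variance and followed age, E12.5 replicate 1 (13) was also nearest to the younger stages (replicates 2 and 3 at 41.8 and 35.1), and E11.5 replicate 2 (-66.6) was nearest to the older ones. At E11.5 and E12.5, 8 and 6 members followed the order of the libraries on that component, and at E10.5 and E14.5 3 members did at each. How many of all tested genes ranked in these ways was not counted, so the counts are not read as a trait of the family. The part of staging or dissection in these orders was not tested.

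Over the 12 libraries the log2 CPM of the members correlated with each other at Pearson r between 0.45 and 0.99, as a description that rests mostly on the shared course over 4 stages. The closest pair was Dcn and Omd (0.99), and the lowest values were those of Prelp with Ogn (0.45) and Lum (0.45). Among 11441 other genes of at least 5 CPM, the genes most like a member by the same measure had r of 0.96 to 1.00. Lum was closest to Anxa2, Trim16 and Lrrc17, Dcn to Emp2 and Srpx, and Bgn to Thbs2, Lox and Col16a1. Ogn was closest to Pgm5, Lama3 and Sfxn3, Aspn to Agtr2, Cmtm3 and Ptpre, and Omd to Agap2, Emp2 and Lmna. Fmod was closest to Gng7, Kcnma1 and Agap2, Prelp to Ptgfr and Gfra1, Kera to Tmcc3, Mxd4 and Itpripl1, and Epyc to Fgf11, Pxk and Asap3.

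In each of 7 lists of genes that work with the family or resemble it, more genes were called higher at the third step than at the first, as was so among all tested genes (23% against 12.2%). Among 14 collagens, the main ligands of these proteins, 10 rose and 1 fell at the first step, 11 rose at the second and 13 at the third. Of all tested genes, 12.2% were called higher and 12.9% lower at the first step, 27.1% and 22.2% at the second, 23% and 24% at the third and 36.6% and 33.8% over the course, and the counts of all these lists stand beside those shares. Col1a1, a chain of type I collagen, went from 34.9 ± 6.9 CPM at E10.5 to 257 ± 29, 485 ± 131 and 5698 ± 952 CPM (SD, n = 3), a log2 change of 7.35 over the course. Col1a2 rose by 4.23 and Col3a1 by 2.83, and Col14a1, Col11a2 and Col6a3 by 7.29, 6.57 and 5.89. Like Lum and Dcn, Col1a2 was not called between E11.5 and E12.5 (0.27, edgeR adjusted p = 0.102).

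Of 22 enzymes that build the linker and the chondroitin or dermatan sulphate chains, 7 rose and 2 fell at the first step, 6 rose at the second (27.3%, a share near the 27.1% of all tested genes) and 16 rose at the third (72.7%). Csgalnact1, which starts chondroitin chains, rose by 3.63 on the log2 scale from E10.5 to E14.5, and Chsy3 and Chpf2, which extend them, by 2.02 and 1.48. Chst13, a chondroitin sulphotransferase, had 2 counts over the E10.5 libraries and 435 over those of E14.5. Of 7 keratan sulphate enzymes, 6 were tested and 3 rose (50%, against 36.6% of all tested genes) and 1 fell over the course: Chst1 (2.37), Chst2 (1.93) and B4galt1 (1.22) rose, and B4galt4 fell by 0.42. The tyrosine sulphotransferases Tpst1 and Tpst2, which modify several class II members, rose by 0.45 and 0.24 over the course. Both were called higher at the third step and not at the first or second.

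Of 8 other leucine-rich repeat proteoglycans and relatives, 7 rose at the second step (87.5%) and 4 at the third (50%). Podn rose by 4.61 over the course, Chad, a cartilage protein, by 3.79, Ecm2 by 3.06 and Optc, known from the eye, by 2.08. Podnl1 had 3 counts at E10.5 and 460 at E14.5. A list of 10 genes holds proteinases that cut these proteins or their propeptides, and enhancers of such proteinases. All 10 were higher at E14.5 than at E10.5, where 36.6% of all tested genes were. Among them were Tll2 (5.78), Adamts5 (2.33) and Tll1 (2.02), and Mmp13 had 4 counts at E10.5 and 723 at E14.5. Of 17 binding partners, growth factors and receptors, 14 rose and 2 fell over the course (82.4% and 11.8%). Ccn4, a matrix signalling protein bound by decorin and biglycan, rose by 4.0, the receptors Egfr and Erbb4 by 3.52 and 3.23, and the ligand Bmp2 by 2.78.

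Markers of the cell types that make these proteins also moved with stage. The 9 osteoblast genes summed to 21.0 to 24.2, 76.9 to 98.3, 70 to 101 and 1639 to 2161 CPM at the 4 stages in order of age, and the 8 of them tested all rose at the third step, where 23% of all tested genes did. At the first step 2 of the 8 rose and 2 fell: Runx2, the osteoblast transcription factor, went from 4.62 to 71.8 CPM, while Ibsp, a bone matrix protein, went from 2.53 to 0.116 CPM. Ibsp made up most of the E14.5 sum, at 1506 ± 263 CPM (SD, n = 3). The 5 tendon genes summed to 17.7 to 25.8, 29.1 to 37.1, 112 to 132 and 207 to 250 CPM. All 5 were called higher at E14.5 against E10.5, where 36.6% of all tested genes were. At the third step 3 of them rose and 1 fell, where 23% were called higher and 24% lower. Scx, a tendon transcription factor, went from 38.8 CPM at E12.5 to 18.9 CPM at E14.5 (stage means). The 8 connective tissue fibroblast genes summed to 201 to 233, 354 to 411, 297 to 386 and 478 to 532 CPM. Tcf4, a transcription factor, held most of that sum, with stage means of 190, 310, 272 and 346 CPM. The sum therefore follows mainly Tcf4 and is not read as a measure of fibroblasts. At the second step 1 of these 8 genes rose and 2 fell, with a median of -0.70 on the log2 scale. Bglap, the defining gene of mature osteoblasts, stood at 0.358 ± 0.164 CPM at E14.5. The part of these cell types in the levels of the members was not tested.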

How the data were processed

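Per the labels' protocols, RNA from dissected maxillary prominences was poly-A selected and made into unstranded libraries. The submitters' processing notes name FastQC, STAR 2.7.3a, HTSeq 0.12.4 and mm10; the annotation release and the handling of strand are not given in the sources used. The authors deposited whole-number counts per Ensembl gene for 12 libraries, not normalized. The 5 closing entries for unassigned alignments (14.3% to 18.6% of those listed) stayed out of library sizes and tests. Symbols and coordinates came from GENCODE M21 (mm10), in which 53706 of 53801 identifiers matched. Within a stage, libraries differed by more than sampling noise (chi-square per degree of freedom of 4.69 or more), which does not show that they come from different animals. Each was taken as 1 replicate because the labels name the replicates biological.

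Counts were fitted with edgeR 4.0.16 (R 4.3.3): filterByExpr with a minimum count of 10, TMM scaling, 1 mean per stage over 12 libraries (8 residual degrees of freedom), Benjamini-Hochberg adjustment and a threshold of 0.05. The fit was tested on simulated data. Ratios of members used log2 CPM with a prior count of 0.5 and a permutation test over all 369600 ways to split the libraries, whose smallest possible p is 6.5e-05. RPKM used the union of exons. Intervals cover counting error only, since reads carry no molecular identifiers. Alternatives were limma-voom (limma 3.58.1), DESeq2 1.42.0, other filters, the compared stages alone, a replicate block, the share outside genes as covariate, each library left out, and the longest transcript as length.

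The members and lists were chosen with earlier results of these data known. Named genes are the members, up to 4 called genes per list with the largest change from E10.5 to E14.5, Col1a1, Col1a2, Col3a1, Ecm2, Podn and Optc, and the 3 most alike genes per member, of which some are not reported here. Krt12, Bglap, Snorc, Matn1, Xist, Col2a1, Acan, Runx2, Ibsp, Tcf4, Hand2, Scx and overlapping genes were named after their values were seen. Protein sequences were not used here.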

Additional observations from a re-analysis of the deposited data

How the results depend on the processing

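Of 1198 values (log2 fold changes of the members in the 6 comparisons under 20 alternatives), 1157 kept their direction and their side of the threshold, 20 lost and 15 gained a call, and 6 reversed. With the share of alignments outside genes as covariate, the change between E11.5 and E12.5 was -0.045 for Lum, -0.29 for Fmod, -0.52 for Omd and -1.01 for Epyc, and Epyc was -0.87 between E11.5 and E14.5. Without E12.5 replicate 2, Lum was -0.15 between E11.5 and E12.5, the lowest of its values with 1 library left out, and the highest was 0.33 without E11.5 replicate 2. None of the 6 reversed values was called, the changes of Lum, Fmod and Omd were not called in the reported fit either, and the cause was not tested. The covariate fit called 1 member between E11.5 and E12.5 and 3 between E11.5 and E14.5, where it called 3.77% and 18.8% of all genes (49.3% and 69.9% without the covariate). The test without a filter on low counts called 9 between E11.5 and E12.5 (8 higher and Kera lower), where it called 26.5% of all genes. With 1 library left out at a time, the members called were 8 to 9 at the first step, 5 to 8 at the second, 9 to 10 at the third and 8 to 10 for E12.5 against E10.5, and 10 for E14.5 against E10.5, E14.5 against E11.5 and the joint test. Those fits called 16.6% to 26.4% of all tested genes at the first step and 38.8% to 50.6% at the second. They called 36.4% to 48.7% at the third step and 45.3% to 54% for E12.5 against E10.5. For E14.5 against E10.5, E14.5 against E11.5 and the joint test, they called 64.2% to 70.7%, 63.4% to 70.4% and 76% to 81.3%. With the compared stages alone, 8 members were tested at the first step and 8 were called, where 28.2% of all genes tested were called.

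With the longest transcript as length, the shares of the family's RPKM at E14.5 became 28.4% for Lum, 20.7% for Bgn, 17.5% for Ogn, 11% for Aspn, 2.37% for Kera and 2.00% for Omd.

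Same-numbered libraries of different stages did not deviate together: in no comparison were all 3 correlations of deviations over 0.1 (the highest was 0.14), so the numbers name the libraries and do not pair them. With replicate number as a block, 9, 6 and 10 members were called at the 3 steps, 9 for E12.5 against E10.5 and 10 in the other comparisons. In that fit 25.5%, 50.1% and 47.6% of all tested genes were called at the 3 steps and 54% for E12.5 against E10.5. For E14.5 against E10.5, E14.5 against E11.5 and the joint test, 70.7%, 70% and 81.5% were called. The added call was Dcn between E11.5 and E12.5 (0.64, edgeR adjusted p = 0.0364).

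Precision is limited by 3 libraries a stage and, for Epyc, Aspn and Prelp at the early stages, by counts near 0.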
